A study of Mus musculus with 6 samples.

Results

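A set of 10 imprinted growth genes was examined in muscle stem cells (MuSCs) sorted from injured mouse muscle: *H19*, *Igf2*, *Meg3*, *Dlk1*, *Rian*, *Mirg*, *Cdkn1c*, *Peg3*, *Plagl1*, and *Grb10*. They were taken by gene name, and all 10 were found among the 49671 genes of the expression files. None of the 9 members that had enough counts for a test passed the test between mice given resolvin D1 (RvD1) and mice given vehicle. Of all 14494 genes tested, 0.0% passed. RvD1 replicate 1 held the highest level of 6 of the 9, against 30.6% of all genes. For these 6 of 9 the difference was above 0 with all libraries and below 0 without that library, against 14.4% of all genes.

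An imprinted gene is transcribed from only the copy inherited from the mother or only the copy inherited from the father, a choice set by DNA methylation marks laid down in the germ line. Paternally expressed genes such as *Igf2*, *Dlk1*, *Peg3*, and *Plagl1* and maternally expressed genes such as *H19*, *Meg3*, *Cdkn1c*, and *Grb10* act as regulators of fetal growth. Several of them are transcribed in developing muscle, decline after birth, and are transcribed again in MuSCs and myoblasts during regeneration. The libraries came from inbred mice and gave total RNA per gene, so the parental copy that was transcribed was not measured.

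Each library was made from the MuSCs of 1 female C57BL/6 mouse aged 4 to 6 months. Both TA muscles were injected with 50 μL of 1.2% BaCl2, which injures myofibers, and the 2 muscles of a mouse were pooled at day 3. Of these mice, 3 were given 100 ng of RvD1, a lipid mediator made from docosahexaenoic acid, by daily IP injection, and 3 were given 0.1% ethanol as vehicle. MuSCs were sorted as cells that stain for β1-integrin and CXCR4 and not for Sca-1, CD11b, Ter119, or CD45, to which the sample labels add CD31. All 6 mice were injured, and uninjured cells were not analysed here. Total expected counts ranged from 16148026 to 28149176 per library, and 3 counts, the floor used here, corresponded to 0.107 to 0.186 CPM (counts relative to the library total, which for the levels below was also scaled with TMM factors). The floor covers counting error only. Of the 14494 genes tested, 30.6% were highest and 29.5% lowest in RvD1 replicate 1, against 9.19% to 18.9% and 9.68% to 19.2% for the other libraries. RvD1 replicate 1 thus stood apart from the others, and the log2 fold changes of the tested members are given with and without it. The sorted cells contained RNA of *Pax7*, *Myf5*, *Myod1*, and *Myog*, transcription factors of the MuSC lineage. Their levels were 4.03 to 8.50, 101 to 220, 239 to 470, and 818 to 1380 TPM. TPM are counts divided by transcript length, then brought to the same sum in every library.

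Among the members, 5 are hosts of microRNAs, which are cut from the host RNA or from its introns and recognize target RNAs through bases 2 to 8, the seed. RefSeq places 21 microRNA genes and 39 mature sequences inside them on GRCm38.p6, of which 14 genes lie in *Mirg*, 3 in *Rian*, 2 in *Meg3*, and 1 each in *H19* and *Igf2*. The sequences below are shown because they are the known products of the RNAs measured here, with the seed in capitals and each sequence written 5′ to 3′. Those of *H19* and *Meg3* and miR-134-5p of *Mirg* lie in an exon of the host, and those of *Igf2* and *Rian* and the other 2 of *Mirg* lie in an intron.
miR-675-5p (chr7:142577112-142577133, minus strand): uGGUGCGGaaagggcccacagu
miR-675-3p (chr7:142577078-142577099, minus strand): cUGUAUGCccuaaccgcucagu
miR-483-5p (chr7:142654968-142654989, minus strand): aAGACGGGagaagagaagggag
miR-483-3p (chr7:142654932-142654952, minus strand): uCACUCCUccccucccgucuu
miR-770-5p (chr12:109563710-109563731, plus strand): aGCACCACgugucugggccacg
miR-370-3p (chr12:109618305-109618326, plus strand): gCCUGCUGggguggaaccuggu
miR-134-5p (chr12:109734145-109734166, plus strand): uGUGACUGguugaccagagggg
miR-453 (chr12:109735669-109735692, plus strand): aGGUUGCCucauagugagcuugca
miR-496a-5p (chr12:109739132-109739152, plus strand): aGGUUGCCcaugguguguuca
The seeds of miR-453 and miR-496a-5p, both in *Mirg*, are identical, and these were the only 2 of the 39 sequences that shared a seed. All 21 microRNA genes are listed in the expression files. Of these, 2 had any count, *Mir675* in *H19* with 9.55 expected counts summed over 6 libraries and *Mir1906-1* in *Meg3*, which has a copy on chromosome X, with 2.28. The cDNA was primed from poly(A) tails, which mature microRNAs lack, so the values below are those of the host RNAs.

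Levels of the members spanned a wide range. On the TPM scale, which corrects for transcript length, the mean of the 6 libraries of both groups was 589 ± 154 TPM (SD, n = 6) for *Cdkn1c*, 217 ± 64.1 TPM for *Peg3*, and 199 ± 16.4 TPM for *Grb10*. *Igf2* had 70.3 ± 27.5 TPM, *H19* 61.8 ± 9.38 TPM, and *Plagl1* 30.4 ± 20.8 TPM. *Meg3* had 9.79 ± 7.13 TPM, *Rian* 1.57 ± 1.01 TPM, *Dlk1* 1.04 ± 0.345 TPM, and *Mirg* 0.315 ± 0.348 TPM. *Cdkn1c* stood above 98.0% of the genes tested, *Peg3* above 93.6%, and *Dlk1* above 10.9%. Some neighbors in this order did not differ beyond their spread. *Peg3* was above *Grb10* in 4 of 6 libraries, *Igf2* above *H19* in 2 of 6, and *Rian* above *Dlk1* in 3 of 6, and the ranges of each of these pairs overlapped. *Cdkn1c* against *Peg3*, *Grb10* against *Igf2*, and *Meg3* against *Rian* did not overlap. The ranges of *H19* and *Plagl1*, *Plagl1* and *Meg3*, and *Dlk1* and *Mirg* overlapped, with the former above the latter in 5, 6, and 6 libraries. Genes annotated within the members on either strand added few reads, with at most 1.59 expected counts on average (*Mir675*), although a protein-coding gene that overlaps *Igf2* on the same strand was not analysed here.

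**Figure D1:**
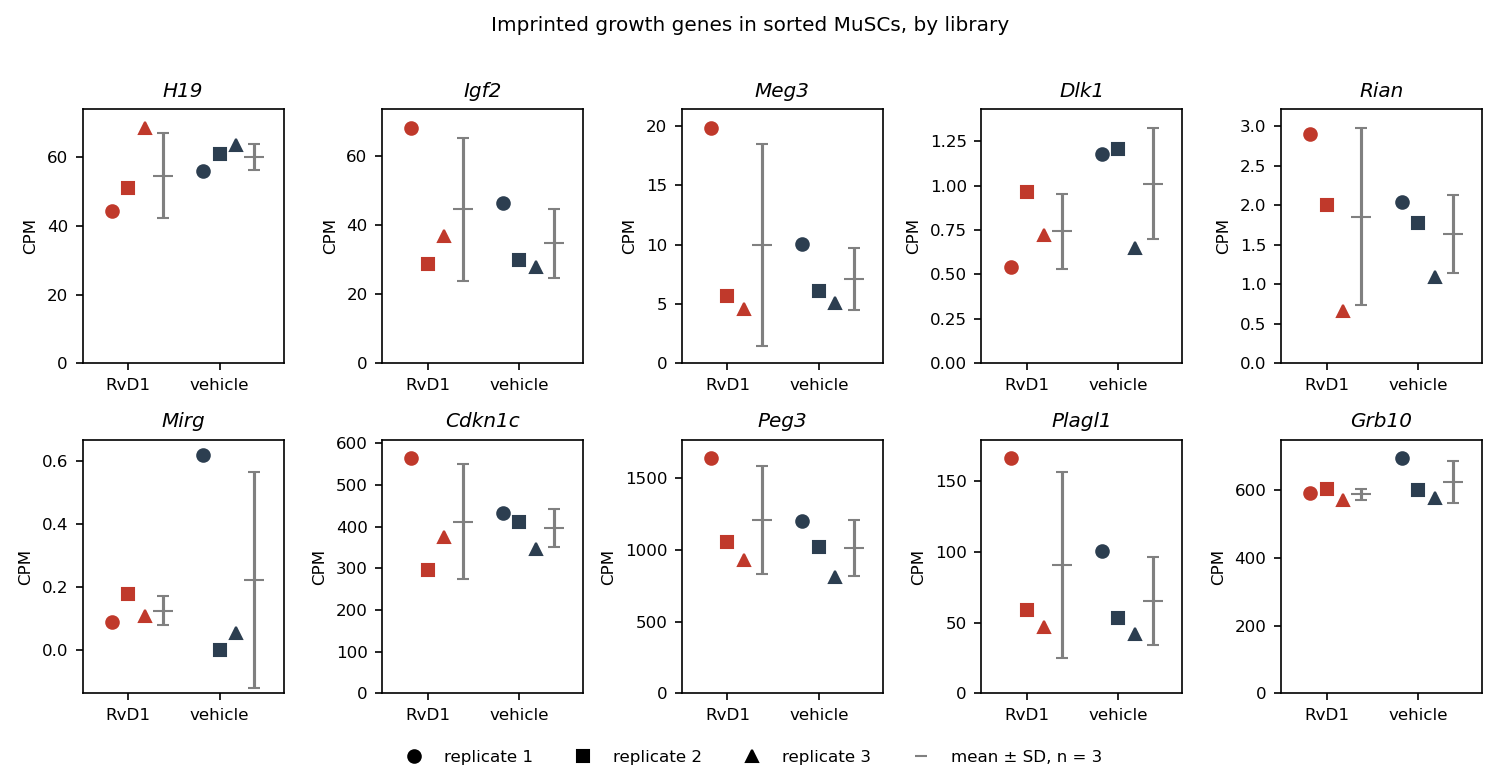
Level of each of the 10 genes in CPM (vertical axis, linear, a separate scale for each gene) in the 3 RvD1 and 3 vehicle libraries (horizontal axis), with marker shapes for the replicate number and the mean ± SD of each group in gray. The groups overlap for every gene, and RvD1 replicate 1 (red circle) is the highest point for *Igf2*, *Meg3*, *Rian*, *Cdkn1c*, *Peg3*, and *Plagl1*.

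*H19* and *Igf2* are neighbors on chromosome 7, 72.6 kb apart and on the minus strand. *H19* (ENSMUSG00000000031, chr7:142575529-142578143 on mm10) gives a maternally expressed noncoding RNA, and *Igf2* (ENSMUSG00000048583, chr7:142650766-142666816) encodes a growth factor that signals through the receptors Igf1r and Insr. *H19* had 44.5, 51.0, and 68.5 CPM in RvD1 replicates 1 to 3 and 55.9, 61.0, and 63.5 CPM in vehicle replicates 1 to 3. The lowest and the highest of these were both RvD1 libraries. The means of the groups were 54.7 ± 12.4 and 60.2 ± 3.88 CPM (SD, n = 3 each), with a log2 fold change of -0.14 (SE 0.157, 95% interval -0.497 to 0.216, adjusted p = 0.971, edgeR), and it was -0.014 without RvD1 replicate 1. *Igf2* had 68.2, 28.8, and 36.9 CPM with RvD1 and 46.3, 30.0, and 28.0 CPM with vehicle. RvD1 replicate 1 was the highest library and vehicle replicate 1 the next, and the other 4 lay between 28.0 and 36.9 CPM. The log2 fold change of *Igf2* was 0.36 (SE 0.314, 95% interval -0.352 to 1.073, adjusted p = 0.971) with all libraries and -0.083 without RvD1 replicate 1. On the TPM scale the ratio of *H19* to *Igf2* was 0.431, 1.04, and 1.07 with RvD1 and 0.708, 1.24, and 1.45 with vehicle. The ratio was below 1 only in the libraries numbered 1, those with the highest *Igf2* level.

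The other cluster lies on chromosome 12 and is transcribed from the plus strand. *Dlk1* (ENSMUSG00000040856, chr12:109452823-109463336), whose protein is a membrane protein of the Notch ligand family, lies 77.7 kb before *Meg3* (ENSMUSG00000021268, chr12:109541001-109571726). *Meg3*, *Rian* (ENSMUSG00000097451, chr12:109603940-109661716), and *Mirg* (ENSMUSG00000097391, chr12:109729764-109749460) are maternally expressed noncoding RNAs, with gaps of 32.2 kb and 68.0 kb between them. *Rian* hosts small nucleolar RNAs as well as microRNAs.

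*Meg3* had 19.8, 5.64, and 4.55 CPM with RvD1 and 10.1, 6.09, and 5.10 CPM with vehicle. RvD1 replicate 1 held 4.36 times the level of the lowest library, RvD1 replicate 3, so the whole range of *Meg3* lay within the RvD1 group. Its log2 fold change was 0.50 (SE 0.532, 95% interval -0.71 to 1.708, adjusted p = 0.971), and it was -0.468 without RvD1 replicate 1. *Rian* had 2.90, 2.0, and 0.666 CPM with RvD1 and 2.04, 1.78, and 1.09 CPM with vehicle. As for *Meg3*, the highest and the lowest library were both from RvD1-treated mice. The log2 fold change of *Rian* was 0.196 (SE 0.508, 95% interval -0.958 to 1.35, adjusted p = 0.977). It was -0.253 without RvD1 replicate 1 and -0.03 without vehicle replicate 3.

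*Dlk1* rested on few reads, with 12, 27, and 13 expected counts with RvD1 and 19, 21, and 12 with vehicle. In CPM these were 0.543, 0.963, and 0.721 with RvD1 and 1.18, 1.21, and 0.652 with vehicle, all above the floor. The lowest library was RvD1 replicate 1, in which *Meg3* was highest. The log2 fold change of *Dlk1* was -0.428 (SE 0.43, 95% interval -1.404 to 0.548, adjusted p = 0.971) and -0.244 without that library. The ratio of *Meg3* to *Dlk1* on the TPM scale was 45.8 in RvD1 replicate 1 and between 4.81 and 7.14 in the other 5 libraries. *Mirg* had 2, 5, and 2 expected counts with RvD1 and 10, 0, and 1 with vehicle. It did not pass the count filter and was not tested. The 0 in vehicle replicate 2 allows a level of up to 0.169 CPM.

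*Cdkn1c* and *Grb10* restrain growth. *Cdkn1c* (ENSMUSG00000037664, chr7:143458339-143461050, minus strand), 791.5 kb from *Igf2*, encodes p57Kip2, an inhibitor of cyclin-dependent kinases that is induced when myoblasts leave the cell cycle. *Cdkn1c* had 564, 295, and 376 CPM with RvD1 and 434, 411, and 346 CPM with vehicle. The highest and the lowest library were again RvD1 libraries, and the vehicle libraries lay between them. Its log2 fold change was 0.053 (SE 0.211, 95% interval -0.426 to 0.531, adjusted p = 0.988), with -0.242 without RvD1 replicate 1 and -0.038 without vehicle replicate 3. *Grb10* (ENSMUSG00000020176, chr11:11930508-12038683, minus strand) encodes an adaptor that binds the insulin and IGF1 receptors and limits their signaling. *Grb10* had 591, 603, and 570 CPM with RvD1 and 694, 602, and 578 CPM with vehicle. It varied least of the 9 tested members, with 1.22 times between the lowest and the highest library, and its highest library was vehicle replicate 1. The log2 fold change of *Grb10* was -0.087 (SE 0.094, 95% interval -0.301 to 0.128, adjusted p = 0.971) and -0.09 without RvD1 replicate 1.

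*Peg3* and *Plagl1* encode paternally expressed zinc finger proteins, and Plagl1 is a transcription factor that regulates other imprinted genes. *Peg3* (ENSMUSG00000002265, chr7:6703892-6730431, minus strand) had 1639, 1056, and 933 CPM with RvD1 and 1203, 1021, and 811 CPM with vehicle. *Plagl1* (ENSMUSG00000019817, chr10:13060504-13131694, plus strand) had 166, 59.1, and 46.9 CPM with RvD1 and 101, 53.0, and 41.7 CPM with vehicle. Both were highest in RvD1 replicate 1, next in vehicle replicate 1, and lowest in vehicle replicate 3. The log2 fold change was 0.258 for *Peg3* (SE 0.216, 95% interval -0.233 to 0.748, adjusted p = 0.971). For *Plagl1* it was 0.48 (SE 0.478, 95% interval -0.605 to 1.564, adjusted p = 0.971). Without RvD1 replicate 1 these values were -0.024 and -0.29.

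Promoter sequences are given for *Meg3*, *Peg3*, and *Plagl1*, of which *Meg3* and *Peg3* were the members closest to *Plagl1* across the libraries, because imprinting marks lie on CpG dinucleotides, which are in capitals. Each run is the longest stretch outside annotated exons within the 250 bases before a RefSeq start on GRCm38.p6, read on the strand of the gene. The start of *Plagl1* that RefSeq gives lies inside the annotated span of the gene.
Meg3 (chr12:109540746-109540995, plus strand): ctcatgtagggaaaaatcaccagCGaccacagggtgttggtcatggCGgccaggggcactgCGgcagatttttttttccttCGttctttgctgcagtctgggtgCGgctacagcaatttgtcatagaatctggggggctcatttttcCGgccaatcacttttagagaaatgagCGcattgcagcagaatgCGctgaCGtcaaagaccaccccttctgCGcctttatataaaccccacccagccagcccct
Peg3 (chr7:6730432-6730577, minus strand): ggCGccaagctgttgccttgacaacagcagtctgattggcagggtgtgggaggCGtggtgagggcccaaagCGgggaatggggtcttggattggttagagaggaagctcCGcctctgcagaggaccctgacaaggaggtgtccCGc
Plagl1 (chr10:13090582-13090690, plus strand): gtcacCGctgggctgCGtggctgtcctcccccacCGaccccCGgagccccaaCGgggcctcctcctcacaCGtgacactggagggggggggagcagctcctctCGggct
The letters CG, which read the same on both strands, occur 10, 5, and 7 times in these runs, or 4.0, 3.4, and 6.4 times per 100 bases. Over all 32851 RefSeq windows of 250 bases the median was 2.4 per 100 bases, and 92.1% of the windows held at least 1. The runs of *Peg3* and *Plagl1* are shorter than such a window, at 146 and 109 bases, and their full windows held 8 and 19. Another RefSeq start of *Meg3* had 0 in its window. Windows of members not printed here held from 0 (*Rian*) to 40 (*Grb10*). Methylation was not measured in these libraries. For *H19* and *Cdkn1c* no sequence is printed.

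None of the 9 tested members passed an adjusted p of 0.05, and among all 14494 genes tested 0.0% did. At an unadjusted p under 0.05 the members also gave 0 calls, against 3.47% of all genes, and DESeq2 likewise called 0 members by either measure. The groups did not overlap for 0 of 9 members, against 9.62% of all genes. The log2 fold change was above 0 for 6 of 9 members, against 53.5% of all genes, with a median of 0.196 over the members and 0.014 over all genes. These 6 were *Igf2*, *Meg3*, *Rian*, *Cdkn1c*, *Peg3*, and *Plagl1*, and all 6 had values below 0 without RvD1 replicate 1. A value above 0 with all libraries and below 0 without that library was thus found for 6 of 9 members, against 14.4% of all genes. *Rian* and *Cdkn1c* also had values below 0 without vehicle replicate 3 and with limma-voom after removal of a surrogate variable (-0.046 and -0.092). *H19*, *Dlk1*, and *Grb10* had values below 0 with all libraries and with each library left out in turn. The 95% intervals reach a fold of 3.27 for *Meg3* and 2.96 for *Plagl1*, but only 0.812 to 1.09 for *Grb10*. A p that misses the threshold does not show that the groups were alike.

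**Figure D2:**
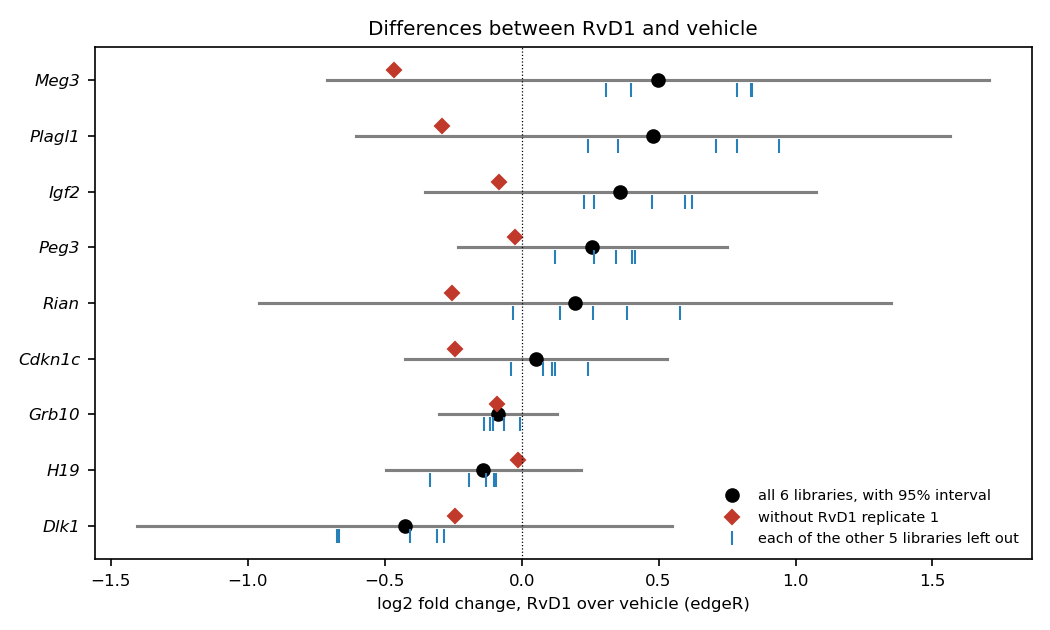
Log2 fold change of RvD1 over vehicle (horizontal axis, edgeR) for the 9 tested genes (rows), with all 6 libraries and its 95% interval (black point, gray line), without RvD1 replicate 1 (red diamond), and with each other library left out (blue ticks). Every interval includes 0, and the 6 genes above 0 have their red diamond below 0, for example *Meg3* at 0.50 and -0.468.

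The libraries of single mice lay far apart for several members. The highest library exceeded the lowest by more than 2-fold for 6 of 9 members (*Igf2*, *Meg3*, *Dlk1*, *Rian*, *Peg3*, and *Plagl1*), against 24.6% of all genes. RvD1 replicate 1 was the highest library for 6 of 9 members, against 30.6% of all genes, and the lowest for *H19* and *Dlk1*, against 29.5%. Of the other 3 members, *H19* was highest in RvD1 replicate 3 (as were 18.9% of all genes), *Grb10* in vehicle replicate 1 (9.19%), and *Dlk1* in vehicle replicate 2 (11.1%). Among the vehicle libraries, replicate 1 was the highest for 7 of 9 members, against 35.4% of all genes. Both held for 6 of 9 members, against 17.0% of all genes. As log2 CPM relative to the mean of 6 libraries, RvD1 replicate 1 stood at 1.41 for *Meg3*, 1.28 for *Plagl1*, 0.86 for *Igf2*, 0.83 for *Rian*, 0.60 for *Peg3*, and 0.51 for *Cdkn1c*. It stood at -0.55 for *Dlk1*, -0.35 for *H19*, and -0.03 for *Grb10*.

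Marker genes of other cells and of the cell cycle also moved with RvD1 replicate 1. Summed TPM of the 5 tendon markers was 1140, 408, and 745 with RvD1 and 447 to 497 with vehicle, with 4 of 5 markers highest in RvD1 replicate 1. In that library *Thbs4* gave 692 and *Fmod* 275 TPM of the sum, and *Scx* was at its lowest, 48.1 TPM. For the 10 fibro-adipogenic markers the sum was 1130, 486, and 619 with RvD1 and 544 to 590 with vehicle, with 6 of 10 highest in that library by TPM, the scale of all counts of highest or lowest markers given here. *Gsn* gave 555 and *Dcn* 450 TPM of the sum in RvD1 replicate 1. *Ly6a*, *Pi16*, and *Col15a1* were lower there than in vehicle replicate 1 (25.4, 0.33, and 1.4 against 39.7, 0.91, and 1.63 TPM). The 7 mural markers summed to 140, 72.2, and 96.3 TPM with RvD1 and 75.0 to 88.7 TPM with vehicle, with 6 of 7 highest in RvD1 replicate 1. The 6 Schwann markers summed to 57.4, 27.5, and 34.4 TPM with RvD1 and 20.4 to 27.4 TPM with vehicle, with 5 of 6 highest in that library. No marker of these 4 lists was at 0 in all libraries.

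Cell cycle genes gave the opposite picture, with 9 of 10 lowest in RvD1 replicate 1 and sums of 1630, 2140, and 2340 TPM with RvD1 and 2070 to 2250 TPM with vehicle. *Pax7* was highest in RvD1 replicate 1, at 8.50 TPM, and *Myod1*, which drives myoblast commitment, was lowest there, at 239 TPM. Across the 12 MuSC and myoblast markers 6 were highest in that library and 1 (*Myod1*) was lowest. The sums ranged from 3600 to 4380 TPM with RvD1 and from 3350 to 3690 TPM with vehicle. *Chodl*, among these 6, had 123, 10.8, and 13.1 TPM with RvD1 and 27.5, 13.5, and 10.9 TPM with vehicle. The 7 myofiber markers summed to 897 to 1650 TPM with RvD1 and 992 to 1320 TPM with vehicle, with 1 of 7 highest in RvD1 replicate 1. The 10 endothelial and 17 leukocyte markers were low, at 10.5 to 31.6 and 49.5 to 112 TPM in sum, with 2 markers of each list highest in RvD1 replicate 1. Of the 17 leukocyte markers, 13 had a lower mean log2 CPM with RvD1. So did 8 of 10 endothelial markers and 10 of 10 cell cycle genes. The count was 0 of 5 for tendon, 1 of 7 for mural, and 1 of 6 for Schwann markers. It was 3 of 10 for fibro-adipogenic, 3 of 12 for MuSC and myoblast, and 2 of 7 for myofiber markers. Of all genes, 53.5% had an edgeR log2 fold change above 0. The neutrophil markers *Ly6g* and *S100a9* were at 0 in all libraries, and *S100a8* had 0.93, 0.0, and 1.8 TPM with RvD1 and 0.49, 0.0, and 0.0 TPM with vehicle. On the mean log2 CPM of each list, exact two-sided permutation p were 0.2 to 0.9 (n = 3 each, for which 0.1 is the smallest possible). The p was 0.1, with groups that did not overlap, for the leukocyte list with only markers past the count filter (-0.56 log2 CPM, exact) and for the Schwann list on log2(TPM + 1) (0.47). The part of these markers in the levels of the imprinted genes was not tested. In sorted bulk cells, a change in the number of cells that transcribe a gene cannot be told apart from a change in RNA per cell.

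**Figure D3:**
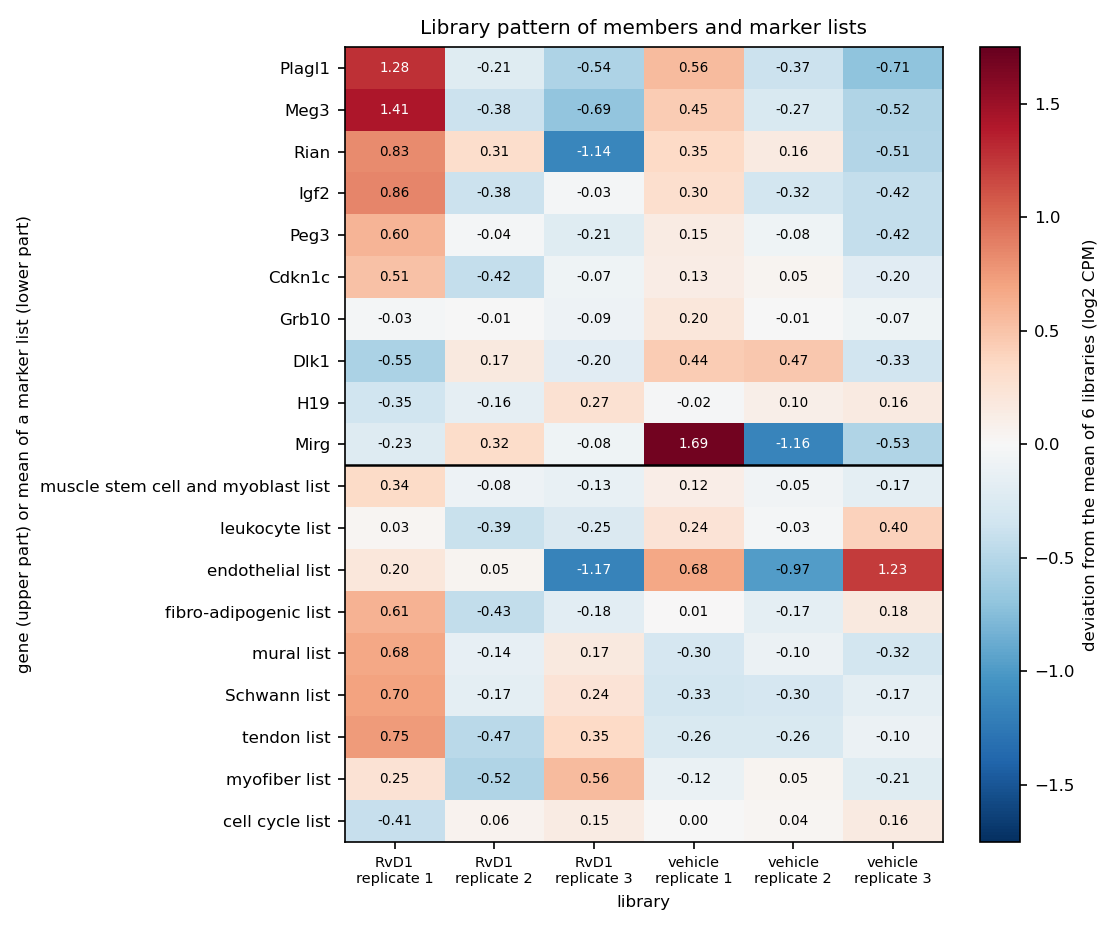
Deviation of each library (columns) from the mean of the 6 libraries in log2 CPM (color and printed value) for the 10 genes (rows above the line) and for the mean of each marker list (rows below it). RvD1 replicate 1 is high for *Meg3* (1.41), *Plagl1* (1.28), and the tendon list (0.75) and low for *Dlk1* (-0.55) and the cell cycle list (-0.41), and *Mirg* rests on at most 10 counts per library.

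Likeness between members was measured as Pearson r of log2 CPM over the 6 libraries, which share the pattern just described. Of 5 pairs from 1 locus, *Meg3* and *Rian* were the closest, with r = 0.788 (exact permutation p = 0.039, n = 6, 0.195 after adjustment over the 5 pairs) and Spearman rho = 0.943 (exact p = 0.017). The relation was also present without RvD1 replicate 1 and vehicle replicate 1, the libraries farthest from the median of *Meg3* (r = 0.939), but 13.6% of all genes were at least as close to *Meg3*. *H19* and *Igf2* had r = -0.626 (exact permutation p = 0.194, n = 6, adjusted p = 0.485) and rho = -0.429 (exact p = 0.419), and r was -0.212 without RvD1 replicates 1 and 3 and 0.028 without RvD1 replicate 1 alone. *Dlk1* and *Meg3* had r = -0.28 (exact permutation p = 0.628, n = 6, adjusted p = 0.696) and rho = 0.029 (exact p = 1.0). This r was 0.872 without RvD1 replicate 1 and vehicle replicate 2 and 0.734 without RvD1 replicate 1 alone, the library on which its sign rests. With the same sign, 19.3% of all genes were at least as close to *H19* as *Igf2* was, and 28.5% to *Dlk1* as *Meg3* was. The pairs of *Mirg* with *Meg3* (r = 0.251, rho = 0.086, r = -0.439 without RvD1 replicate 1 and vehicle replicate 1) and with *Rian* (r = 0.199, rho = 0.314, r = 0.055 without RvD1 replicate 3 and vehicle replicate 3) had exact permutation p of 0.571 and 0.696 over 6 libraries (both 0.696 adjusted over the 5 pairs), and exact p for rho of 0.919 and 0.564.

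*Plagl1* was compared with the 8 other tested members after the values had been seen, so these relations are a description over 6 libraries, and no p is given. *Peg3* followed *Plagl1* in rank through all 6 libraries (rho = 1.0). Its Pearson r with *Plagl1* was 0.975, with 0.97 without RvD1 replicate 1 and vehicle replicate 1, and 0.718% of all genes were at least as close to *Plagl1*. *Meg3* had r = 0.98 and rho = 0.886, with 0.497% of all genes at least as close, and its r was 0.615 without the same 2 libraries. For *Igf2*, r was 0.927 and rho 0.771, and r was -0.13 without those 2 libraries, on which the relation rests. *H19* ran against *Plagl1*, with r = -0.838, rho = -0.886, and r = -0.791 without those libraries. The r was 0.782 for *Rian* (rho = 0.943, r = 0.733 without them) and 0.803 for *Cdkn1c* (rho = 0.657, r = -0.329 without them). It was 0.422 for *Grb10* (rho = 0.60, r = 0.83 without them) and -0.204 for *Dlk1* (rho = -0.029, r = 0.787 without them). The share of all genes at least as close, with the same sign, was 4.04% for *Igf2*, 10.7% for *H19*, and 13.7% for *Rian*. This share was 12.3% for *Cdkn1c*, 33.8% for *Grb10*, and 41.0% for *Dlk1*. Without RvD1 replicate 1 alone, r was 0.922 for *Peg3*, 0.947 for *Meg3*, 0.769 for *Igf2*, -0.58 for *H19*, and 0.977 for *Grb10*.

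**Figure D4:**
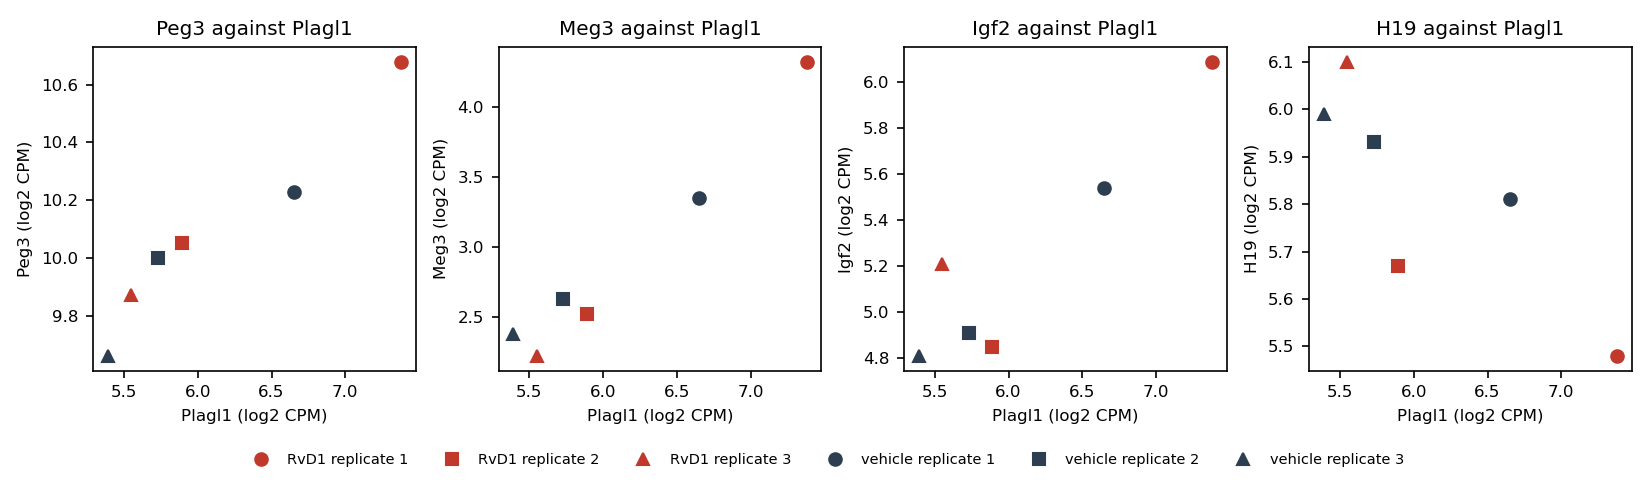
Log2 CPM of *Peg3*, *Meg3*, *Igf2*, and *H19* (vertical axes) against that of *Plagl1* (horizontal axes), with 1 point per library, red for RvD1 and dark for vehicle. *Peg3* ascends with *Plagl1* through all 6 libraries (r = 0.975), whereas for *Igf2* the relation rests on RvD1 replicate 1 and vehicle replicate 1 (r = 0.927 with and -0.13 without them).

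The genes whose library pattern was most like that of 4 members were sought among 6011 genes with a mean of at least 5 log2 CPM, as a description over 6 libraries. The r below are the highest of that search and were not computed again with libraries left out. *Fam114a1* and *Il4ra*, a cytokine receptor subunit, were closest to *Igf2* (r = 0.998 and 0.996), followed by *Heg1*, *AW549877*, and *Rela*, an NF-κB subunit (r = 0.9939 to 0.9895). *Il4ra* had 77.0, 38.9, and 46.8 CPM with RvD1 and 53.2, 38.7, and 37.6 CPM with vehicle, which is the order seen for *Igf2* but for the libraries numbered 2. Those closest to *Meg3* were *Igsf3*, the histone demethylase gene *Kdm5a*, *Cdon*, *Dennd5a*, and *Selenop* (r = 0.9988 to 0.9951). *Cdon*, a cell surface promoter of myogenic differentiation, had 100, 54.3, and 51.5 CPM with RvD1 and 72.2, 58.5, and 55.4 CPM with vehicle, a narrower range than that of *Meg3*. Those closest to *H19* were *Nelfcd*, *Ckap4*, *Tdp1*, *Pdlim3*, and *Thoc6* (r = 0.9951 to 0.9868). *Pdlim3*, which encodes a Z-disc protein, had 96.1, 116, and 156 CPM with RvD1 and 119, 138, and 143 CPM with vehicle. Those closest to *Cdkn1c* were *Bloc1s1*, *Cd99l2*, *Maged2*, *Plin3*, and *Rcn3* (r = 0.9922 to 0.988).

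Other imprinted genes did not pass the test either. Of a list of 47, 46 were found in the files and 37 were tested, and 0 passed an adjusted p of 0.05, against 0.0% of all genes. At an unadjusted p under 0.05 the list gave 0 higher and 1 lower gene, against 1.83% and 1.64% of all genes. The lower gene was *Commd1*, which encodes a protein of copper and NF-κB regulation and hosts the imprinted gene *Zrsr1* in an intron. *Commd1* had 67.9, 74.9, and 74.3 CPM with RvD1 and 86.3, 88.5, and 92.2 CPM with vehicle, so the groups did not overlap. This held for 2 of the 37 genes (the other was *Ddc*), against 9.62% of all genes. The log2 fold change of *Commd1* was -0.298 (SE 0.09, unadjusted p = 0.00946, adjusted p = 0.971, edgeR). *Zrsr1*, a relative of the splicing factor U2AF, had a value of 0.57 (SE 0.309, adjusted p = 0.971), the opposite sign to its host. *Dcn*, which encodes the matrix proteoglycan decorin and is also among the fibro-adipogenic markers, had 446, 191, and 285 CPM with RvD1 and 204, 222, and 246 CPM with vehicle, which gave 0.458 (SE 0.255). *Asb4*, an ankyrin repeat gene, had -0.449 (SE 0.286). Without RvD1 replicate 1 these values were 0.307 for *Zrsr1*, 0.089 for *Dcn*, -0.32 for *Asb4*, and -0.253 for *Commd1*, and *Asb4* had -0.162 without vehicle replicate 3. Over the 37 genes, 17 values lay above 0 and 20 below, against 53.5% of all genes above 0, with a median of -0.001 and a range of -0.65 to 0.596. RvD1 replicate 1 was the highest library for 18 of 37, against 30.6% of all genes, and the lowest for 7, against 29.5%.

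**Figure D5:**
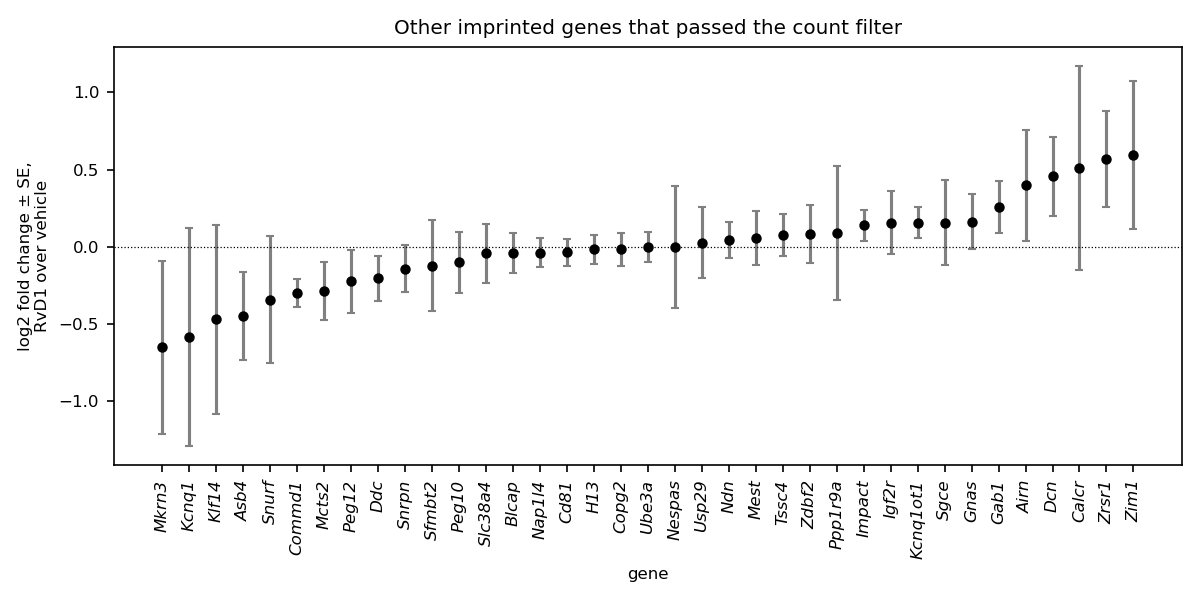
Log2 fold change of RvD1 over vehicle (vertical axis, edgeR, bars ± SE) for the 37 other imprinted genes that were tested (horizontal axis), in order of the value. They spread on both sides of 0, from -0.65 to 0.596, and *Commd1* at -0.298 has the smallest unadjusted p.

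Genes that maintain imprints and genes whose products act with the members gave no calls. Of 15 maintenance genes 13 were tested, and of 26 partner genes 24, with 0 calls in each list by adjusted p and 0 at an unadjusted p under 0.05, against 3.47% of all genes. Among the maintenance genes 8 values lay above 0 and 5 below, against 53.5% of all genes above 0, from -0.193 to 0.194. *Zfp445*, a zinc finger protein that binds imprinting control regions, had 0.194 (SE 0.178), and *Smchd1*, a chromatin protein of imprinted clusters, had 0.125 (SE 0.098). *Trim28*, the corepressor recruited to imprinted regions, had -0.138 (SE 0.131), and *Arid4a* had -0.193 (SE 0.141). *Trim28* was lowest in RvD1 replicate 1, at 210 CPM against 276 to 302 CPM in the other libraries, and its value was 0.001 without that library. The other values were 0.028 for *Zfp445*, 0.181 for *Smchd1*, and -0.196 for *Arid4a* without it. *Smchd1* had 0.067 without vehicle replicate 1, and *Arid4a* -0.073 without RvD1 replicate 3.

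Among the partners, 15 values lay above 0 and 9 below, against 53.5% of all genes above 0, with a median of 0.048 against 0.014 over all genes. *Igf1*, the other ligand of the receptor Igf1r, had 26.3, 8.6, and 23.5 CPM with RvD1 and 13.6, 12.0, and 10.1 CPM with vehicle. RvD1 replicates 1 and 3 were above and replicate 2 was below all vehicle libraries, with a log2 fold change of 0.702 (SE 0.36, unadjusted p = 0.0837, adjusted p = 0.971, edgeR). *Notch2*, a receptor of the pathway in which Dlk1 acts, had 0.176 (SE 0.15). *Cdk4*, the kinase of G1 phase, had -0.163 (SE 0.113), and *Ezh2*, a histone methyltransferase known to bind *Meg3* RNA, had -0.192 (SE 0.14). *Cdk4* and *Ezh2* were lowest in RvD1 replicate 1, as 9 of the 10 cell cycle genes were. Without that library the values were 0.415 for *Igf1*, 0.039 for *Notch2*, -0.05 for *Cdk4*, and -0.068 for *Ezh2*, and *Igf1* had 1.061 without RvD1 replicate 2.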

How the data were processed

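Libraries for RNA-Seq came from sorted MuSCs of 3 RvD1-treated and 3 vehicle-treated mice. The authors aligned the reads to mm10 with STAR 2.5.0a and made the deposited expected counts with RSEM as estimates of the reads of each gene, with no correction for sequencing depth. For the deposited TPM values the authors divided these by transcript length and set each library to the same sum, and for the deposited FPKM values they divided by transcript length and read number. The RSEM version and the gene annotation are not given in the sources used here. RSEM divides reads that match several genes, and the library kit does not keep strand, so reads of overlapping genes cannot be told apart by strand.

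Expected counts were rounded and tested with edgeR 4.0.16 in R 4.3.3 (TMM, filterByExpr with a minimum count of 10, quasi-likelihood test), with Benjamini-Hochberg adjustment over all 14494 genes tested and a threshold of 0.05. The intervals are 95% intervals of the same fit. CPM were scaled with TMM, and log2 CPM used a prior count of 2. P values of edgeR weigh the difference between groups against the spread between mice of a group, moderated by that of the other genes. Exact p of the correlations came from the 720 pairings of the 6 libraries, and those of the marker lists from exchange of the group labels. Alternatives were other scaling factors, no count filter, DESeq2 1.42.0, limma 3.58.1 after voom with and without surrogate variables from sva 3.50.0 (the procedure of the study removes them), TPM and FPKM on the log2 scale with pseudocounts of 1 and 0.1, robust estimation, the replicate number as a block, and each library left out in turn. In simulated counts for RvD1 against vehicle with 200 changed genes, edgeR recovered 112 at 2-fold with 7 false calls among 14244 genes and 181 at 4-fold with 8 false calls among 14241 genes. These counts were drawn independently for each gene, and no library was set apart as RvD1 replicate 1 was. They therefore do not give the recovery in the real libraries.

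Positions are from GENCODE M21, and promoters and microRNAs from RefSeq (GRCm38.p6). Promoter entries were matched for 8 of 10 members. The members and all gene lists were chosen with earlier results of these data known. Named genes were the 10 members, from each list the 2 in each direction with the smallest unadjusted p, the 5 genes most like each of *H19*, *Igf2*, *Meg3*, and *Cdkn1c*, and cell type markers. A marker listed under several identifiers was read from the one with the most counts. A stray header line was removed from each file.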

Additional observations from a re-analysis of the deposited data

How the results depend on the processing

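No imprinted growth gene, other imprinted gene, maintenance gene, or partner gene passed an adjusted p of 0.05 under any alternative. Over all genes the count was 0 under every alternative but the test without a count filter (12, among 26641 genes) and ranged from 0 to 1 with 1 library left out (1 without RvD1 replicate 3). Other scaling, tools, and units kept the sign of every tested member but *Rian* (-0.046) and *Cdkn1c* (-0.092), which turned below 0 with limma-voom after removal of a surrogate variable, and the cause was not tested. *Meg3* had 0.018 in that fit. *Mirg*, which was not tested, had -0.805 with DESeq2, -0.744 without a count filter, and 0.369 in that fit.

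With 1 library left out, the log2 fold change ranged from -0.083 to 0.621 for *Igf2*, from -0.468 to 0.84 for *Meg3*, from -0.253 to 0.578 for *Rian*, from -0.242 to 0.242 for *Cdkn1c*, from -0.024 to 0.413 for *Peg3*, from -0.29 to 0.938 for *Plagl1*, and from -0.251 to 0.001 for *Trim28*. Values of the other sign came from leaving out RvD1 replicate 1 and, for *Rian* and *Cdkn1c*, also vehicle replicate 3. *H19* had a log2 fold change of -0.335 without RvD1 replicate 3, with an unadjusted p of 0.0234 and an adjusted p of 0.788 (edgeR).

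The r of *Meg3* with *Rian* was 0.758 on log2(TPM + 1) and 0.798 on deviations from the group means, with exact permutation p of 0.056 and 0.054, and ranged from 0.714 to 0.885 with 1 library left out, where no p was under 0.05. The ranges were -0.015 to 0.328 for *Rian* with *Mirg*, -0.506 to 0.734 for *Dlk1* with *Meg3*, -0.864 to 0.028 for *H19* with *Igf2*, and -0.477 to 0.724 for *Plagl1* with *Dlk1*. The difference in the fibro-adipogenic markers, -0.01 log2 CPM, was 0.08 on log2(TPM + 1) and 0.04 with only markers past the count filter. With 1 library left out it ranged from -0.31 to 0.21, that of the MuSC and myoblast markers from -0.08 to 0.16, that of the myofiber markers from -0.04 to 0.50, and that of the cell cycle genes from -0.24 to 0.04.

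The groups share replicate numbers, yet each number stands for a different mouse in each group. The deviations of same-numbered libraries correlated at 0.31, -0.001, and 0.126 for numbers 1 to 3, and those of different-numbered libraries at -0.246 to 0.173. The highest value was thus that of the libraries numbered 1. Not every library correlated best with its own number, and the numbers were not taken as pairs. With the replicate number as a block, 0 genes passed an adjusted p of 0.05 (smallest 0.791), and 896 genes, against 503 without it, had an unadjusted p under 0.05. The 896 were 6.18% of all genes, and among them were 3 of the 9 tested members. These were *Igf2* (log2 fold change 0.303, unadjusted p = 0.0494), *Peg3* (0.232, unadjusted p = 0.0328), and *Plagl1* (0.356, unadjusted p = 0.0204), each with an adjusted p of 0.791 (edgeR).

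Depth limited *Mirg* and *Dlk1*, with at most 10 and 27 counts per library.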

Other observations

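Imprinted genes outside the 10 members, chosen here after their values were seen, differed widely in level. *Mest*, a paternally expressed gene of the hydrolase fold family, had 4290, 2800, and 2840 CPM in RvD1 replicates 1 to 3 and 3510, 3330, and 2690 CPM in vehicle replicates 1 to 3, above *Peg3* in every library. *Gnas*, which encodes a G protein subunit, had 1460, 1010, and 853 CPM with RvD1 and 1050, 1010, and 906 CPM with vehicle. *Igf2r*, the receptor that clears Igf2 from the cell surface, had 242, 151, and 169 CPM with RvD1 and 210, 158, and 137 CPM with vehicle. These 3 genes were highest in RvD1 replicate 1, and vehicle replicate 1 was the highest vehicle library.

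Neighbors of *Peg3* in its imprinted cluster did not all share its library pattern. *Zim1* had 48.9, 20.8, and 10.3 CPM with RvD1 and 23.2, 17.4, and 12.5 CPM with vehicle, and was highest in RvD1 replicate 1. *Usp29* had 5.07, 5.46, and 3.61 CPM with RvD1 and 4.65, 4.54, and 4.72 CPM with vehicle, and was highest in RvD1 replicate 2. *Calcr*, an imprinted gene outside that cluster, encodes the calcitonin receptor of quiescent MuSCs. It had 11.8, 2.68, and 2.27 CPM with RvD1 and 6.44, 3.51, and 1.85 CPM with vehicle. No p is given for these patterns, and none of these 6 genes passed an unadjusted p of 0.05 between the groups (edgeR).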
